A study of Panicum virgatum with 8 samples.

Results

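The miR156 and miR529 families were described here from a table of miRNA hairpins predicted in switchgrass (Panicum virgatum AP13), a tetraploid grass whose chromosomes come in K and N subgenome copies. A hairpin locus was taken as a member when the more abundant of its strands carried a miR156 or miR529 name, the name being that of the matching miRBase entry of another species. Of 210 loci in the table, 28 were members, 26 of miR156 and 2 of miR529, and they gave 7 distinct miRNA sequences of 59. Small RNA libraries had been made from 8 conditions with 1 library each, all from AP13 plants raised in a greenhouse at averages of 26 °C by day and 20 °C by night. They were a cold control, cold at 4 °C for 24 h, a drought control, drought sampled 11 days after the last watering, drought followed by re-watering and sampled on day 12, leaf, stem and panicle. The sample labels call the control and stress tissue above-ground, whereas the study's description names upper leaf blades of plants 2 months after propagation. The table names no library and lists 1 abundance for each sequence, without a unit, so the libraries were taken as pooled. Members therefore have no value by condition, no replicate error and no depth in the table (library totals were not used here), and the values below are descriptions without tests. Positions refer to version 4.1 of the genome.

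Plant miRNAs are cut from one arm of a hairpin and guide Argonaute proteins to complementary mRNAs. The strand paired with the miRNA in the hairpin is called the miRNA*. miR156 represses SPL transcription factors (SQUAMOSA promoter binding protein-like), is high in juvenile shoots and declines as a plant matures. In maize the Corngrass1 locus, which holds a tandem pair of miR156 hairpins, keeps plants juvenile and strongly tillered when it is overexpressed. miR529, prominent in grasses, is known to act on some of the same SPL mRNAs at an overlapping site. Target mRNAs were not analysed here.

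The 7 miRNA sequences are shown because those of the same family and arm differ from each other at very few positions. They are written 5′ to 3′ in DNA letters as deposited, with the seed (bases 2 to 8) in capitals.
gma-miR156o: tTGACAGAagagagtgagcac
ata-miR156e-5p: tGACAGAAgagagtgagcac
sbi-miR156e: tGACAGAAgagagcgagcac
bdi-miR156j: tGACAGAAgagagagagcac
bdi-miR156e-3p: gCTCACTTctctctctgtcagc
bdi-miR529-5p: aGAAGAGAgagagtacagcct
osa-miR529b: aGAAGAGAgagagtacagctt

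The sequences fell into 4 seed groups. The 20-nt sequences ata-miR156e-5p, sbi-miR156e and bdi-miR156j shared a seed and differed from each other only at position 14, counted from the 5′ end. Against ata-miR156e-5p the change was T14C in sbi-miR156e and T14A in bdi-miR156j. The 21-nt gma-miR156o is ata-miR156e-5p with 1 further T at its 5′ end, which moves its seed by that base. Because the shorter sequence is contained in the longer one, reads of ata-miR156e-5p could also arise at the gma-miR156o loci. The miR529 sequences differed from each other by C20T and began with A, whereas the miR156 sequences of the 5′ arm began with T. The first 13 nt of both miR529 sequences (agaagagagagag) are the run of bdi-miR156j that starts at its position 5. With ata-miR156e-5p and sbi-miR156e the shared run from that position was 9 nt. The remaining member, bdi-miR156e-3p, comes from the opposite arm of a miR156 hairpin and has a seed of its own.

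The most abundant member was gma-miR156o, listed at 1866 and 12th among the 59 miRNA sequences of the table. It was followed by ata-miR156e-5p at 1289, which had 13 loci against 4 for gma-miR156o. The form with the further 5′ T was thus 1.45 times as abundant as the shorter one. The single bdi-miR529-5p locus was listed at 805, and its near-identical relative osa-miR529b at 46, so the former was 17.5 times as abundant. The sorghum-named sbi-miR156e stood at 297 from 2 loci, and bdi-miR156e-3p, the miRNA of 1 locus and also a miRNA* elsewhere, at 13. The lowest was bdi-miR156j, at 4 although it had 6 loci, the second-highest number among the members. The study's methods give a minimum of 10 TP10M, a depth-scaled read count, for a sequence to be considered. Of all 59 sequences 13 were listed below 10, bdi-miR156j among them, so the listed values may be in another unit. Abundance thus did not follow the number of loci within these families. The median over all 59 sequences was 120, with a range from 2 to 185355.

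The 7 sequences summed to 4320, or 1.54% of the summed abundance of all miRNA sequences in the table. miR156 contributed 3469 (80.3% of the members' sum) and miR529 851 (19.7%). By number of loci miR156 ranked 1st of 29 families with 26 loci, just ahead of miR171 with 25, but by summed abundance it ranked 8th. Of the 26 loci, 21 were within the structural limits described below, and families were not ranked on such loci alone. Without replicates no interval can be given for these ranks.

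**Figure D1:**
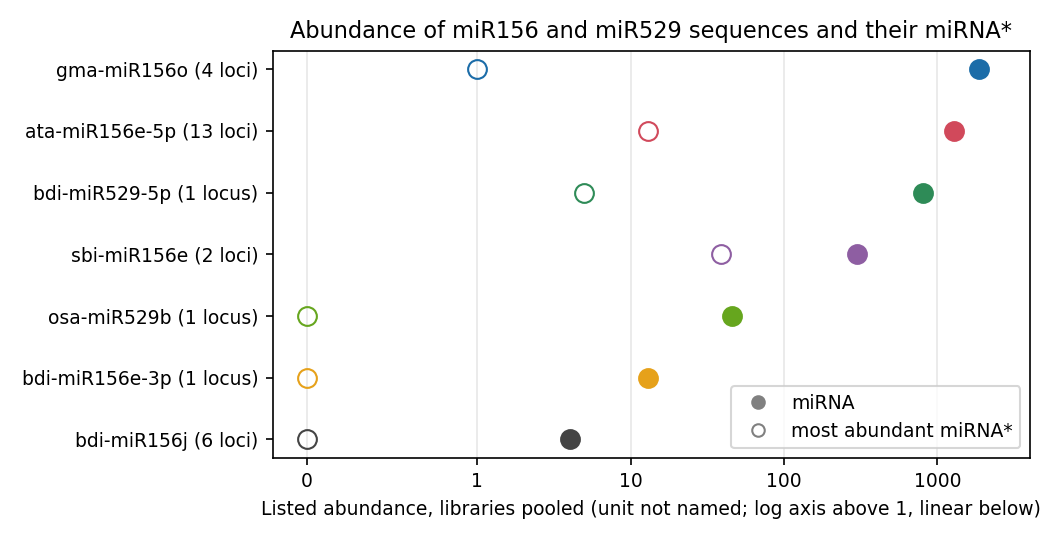
Listed abundance (pooled libraries, unit not named, log axis above 1) of the 7 miRNA sequences, with filled points for the miRNA and open points for the most abundant miRNA* at any of its loci. The miRNA values run from 4 for bdi-miR156j to 1866 for gma-miR156o, and the miRNA* values from 0 to 39.

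The 8 distinct miRNA* strands that had an abundance above 0 are shown next, because at the other loci the miRNA* was listed at 0. Capitals mark bases left unpaired when the miRNA and miRNA* were folded as a duplex. Each is given by its miRBase name and the chromosome of its locus.
zma-miR156i-3p, Chr01K: gctcactGctctAtctgtcaTC
zma-miR156i-3p, Chr01N (2 loci): gctcactGctctAtctgtcaTCC
zma-miR156e-3p, Chr07N: gctcactGctctCtctgtcaTC
bdi-miR156e-3p, Chr02K: gctcactTctctCtctgtcaGC
osa-miR156b-3p, Chr05N: gctcactctctAtctgtcagC
osa-miR156j-3p, Chr04K: gctcgctcCtcttTctgtcaGC
osa-miR156j-3p, Chr04N: gctcgctcCtcttTctgtcaGCCT
bdi-miR529-3p, Chr01K: gctgtacCctctctcttctTC

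A miRNA* abundance of at least 1 was listed at 9 of the 28 loci (32.1%), against 92 of all 210 loci (43.8%). The highest was osa-miR156j-3p at 39, opposite sbi-miR156e at 297, a ratio of miRNA to miRNA* of 7.6. This was the smallest ratio among the 9 loci that had one. At the other 19 the miRNA* was listed at 0 and no ratio could be formed. For bdi-miR156e-3p as a miRNA* the value was 13 against 1289 for ata-miR156e-5p, a ratio of 99.2, and bdi-miR529-3p was listed at 5 against 805, a ratio of 161. The value of ata-miR156e-5p is shared by all 13 loci of the sequence, whereas bdi-miR156e-3p was its miRNA* at only 1 of them. The ratio of 99.2 therefore cannot be read per locus. At sbi-miR156e the miRNA* was above 0 at both loci, and neither value can be divided between them. The miRNA bdi-miR529-5p had a single locus. Because the number of loci behind a value differs, the ratios cannot be compared between sequences. The strands zma-miR156i-3p, zma-miR156e-3p and osa-miR156b-3p were each listed at 1. For the most abundant member, gma-miR156o, the miRNA* was listed at 1 at 1 locus and at 0 at the other 3. All 15 member structures with a miRNA* above 0 gave that strand a miRBase name, and all 28 at 0 gave it none. A value of 0 therefore cannot be told apart from a strand that had no miRBase match.

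The strand bdi-miR156e-3p appeared in both roles. On Chr02K, from 66702887 to 66703056, it was the miRNA* of ata-miR156e-5p. At a different Chr02K locus, from 60903545 to 60903710, it was itself counted as the miRNA with 13, and the opposite arm differed from ata-miR156e-5p by C20T and was listed at 0. That opposite strand had no miRBase name. The value of 13 belongs to the bdi-miR156e-3p sequence, which both loci hold, and cannot be divided between them.

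The variable base of miR156 was matched by a change in the paired arm at the sbi-miR156e loci and at some bdi-miR156j loci. In the predicted duplexes of all 13 ata-miR156e-5p loci, position 14 of the miRNA was paired with position 5 of the miRNA*. At both sbi-miR156e loci the change T14C came with A5G in the miRNA*, and at 2 of the 6 bdi-miR156j loci T14A came with A5T. Base pairing at this site was thus present in these hairpins, though the miRNA* strands had been identified by their pairing with the miRNA. Of the other bdi-miR156j loci, 2 had position 14 paired with a T at position 7 of the miRNA*, and 2 had it unpaired. In gma-miR156o, whose further 5′ base shifts the numbering, position 15 was paired with position 5 at all 4 loci. The variable position 20 of miR529 lies in the 3′ end that extends past the start of the miRNA*, so at both loci it had no base to pair with.

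The bdi-miR156j loci divided sharply. The Chr02K locus (72125425 to 72125531) and the Chr02N locus (74583555 to 74583661) had a miRNA* of the usual miR156 kind and a duplex energy of -25.3 kcal/mol. The 4 on Chr01K and Chr01N had duplex energies from -12.7 to -9.3 kcal/mol and miRNA* sequences that do not resemble the others. Sequences of both kinds are printed for comparison, again with unpaired bases in capitals.
Chr02K and Chr02N: gctctctGctctCActgtcaTC
Chr01K, 4159842 to 4160266: GCGgcctttttttttttcaGGA
Chr01N, 4113314 to 4113761: GCGgccttTAttttttttTtcaGA
Chr01K and Chr01N, 34-nt spacing: gctcCAtcGAAttttgAAGCAGT

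The miRNA* of the loci with the long precursors, of 425 and 448 nt, held a long run of T. In the remaining pair (Chr01K, 7533537 to 7533640, and Chr01N, 6896876 to 6896950) the starts of the strands were only 34 nt apart. All 4 lay outside the structural limits that the study set for a conserved miRNA, which required a 20- to 24-nt miRNA on a precursor shorter than 300 nt. No more than 5 positions of its duplex could be mismatched, and asymmetric bulges could hold 3 nt at most. The study's further criteria on abundance, genome hits and read bias were not applied here, so "within the limits" refers to structure alone, and it includes the Chr02K and Chr02N loci of bdi-miR156j. The listed abundance of 4 belongs to the sequence and cannot be divided among the 6 loci.

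**Figure D2:**
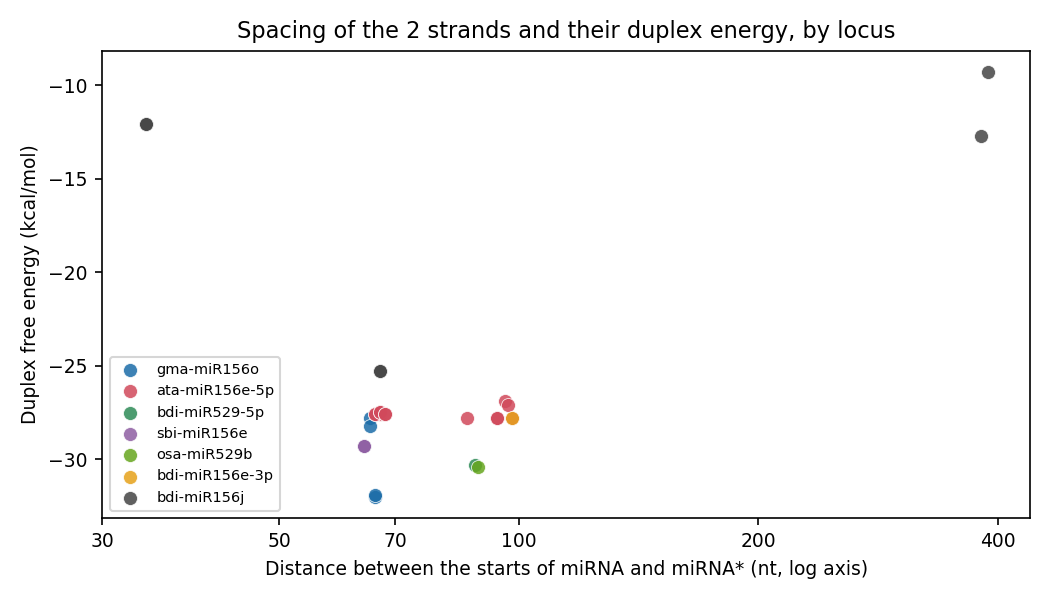
Distance between the starts of miRNA and miRNA* (nt, log axis) against the predicted duplex energy (kcal/mol), with 1 point per locus coloured by sequence. All loci but 4 lie between 64 and 98 nt and at or below -25.3 kcal/mol, and the 4 exceptions are bdi-miR156j loci at 34, 381 and 388 nt.

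Apart from these 4, the miR156 hairpins came in a short and a long form. In 15 loci the strand starts were 64 to 68 nt apart, and in 7 they were 86 to 98 nt apart, with no locus between. All gma-miR156o and sbi-miR156e loci were short, as were both bdi-miR156j loci on Chr02K and Chr02N. The 13 ata-miR156e-5p loci included 7 short and 6 long ones, so hairpins of both forms held the same miRNA sequence. The short form of ata-miR156e-5p lay on chromosomes 1, 5 and 7 and the long form on chromosomes 2, 6 and 8. The miR529 loci had distances of 88 and 89 nt. Across all loci of the table for which both strands were given, the median distance was 80 nt.

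Pairing was nearly uniform among the 23 loci within the limits, which by themselves cap the mismatches of the duplex. Their duplex energies lay between -32.0 and -25.3 kcal/mol (median -27.8), and 17 to 19 bases of the miRNA were paired. Outside the limits the energies rose to -9.3 kcal/mol and the paired bases fell to 11. The median of all members was -27.6 kcal/mol, beside -27.5 kcal/mol over the 207 loci of the table that gave a miRNA*. The most stable duplexes were those of gma-miR156o on Chr05K and Chr05N, at -32.0 and -31.9 kcal/mol. The miR529 duplexes were at -30.3 and -30.4 kcal/mol.

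The share of loci within the limits was 82.1% among the members (23 of 28) and 88.1% in the whole table (185 of 210). The fifth locus outside them was an ata-miR156e-5p hairpin on Chr07N from 51592218 to 51592357, with 15 mismatch positions listed and the deposited call "bad seq". When its strands were folded alone, 18 of 20 bases of the miRNA were paired at -27.6 kcal/mol, the same energy as for its K copy. The deposited call was "miRNA candidate" for 20 of the 28 members (71.4%), "miRNA-like" for 5 and "bad seq" for 3, and for 159 of all 210 loci (75.7%) it was "miRNA candidate". One of the "bad seq" loci, of ata-miR156e-5p on Chr05K, had a less stable structure with 5 mismatch positions, which met the limits. Both miR529 loci were candidates. The miRNA lay on the 5′ arm in 25 members and on the 3′ arm in 3, whereas the whole table was nearly even, with 114 and 96. The 3 on the 3′ arm were bdi-miR156e-3p and the 2 long-precursor bdi-miR156j loci.

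Precursor free energy varied with the length of sequence folded. Its median over the 28 members was -69.6 kcal/mol, with extremes of -156.6 and -25.3, and over all loci it was -68.8 kcal/mol. The extremes were both bdi-miR156j loci, the 448-nt and the 75-nt precursor. Among structures within the limits the lowest was that of the bdi-miR156e-3p locus at -84.6 kcal/mol and the highest that of the ata-miR156e-5p locus on Chr05K at -51.7 kcal/mol. Scaled to 100 nt of precursor, the members' median was -52.2 kcal/mol, beside -48.8 over the table. The precursors also differed in how they had been cut out. At the 9 members with a miRNA* above 0, 24 to 26 nt preceded the first strand, and at the 19 others the median was 11 nt, with a range of 9 to 37. The median energy was -77.3 kcal/mol in the former and -63.7 in the latter. Over the whole table the corresponding medians were 25 and 11 nt before the first strand and -79.2 and -61.4 kcal/mol. The part of this extra sequence in the energies was not tested.

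**Figure D3:**
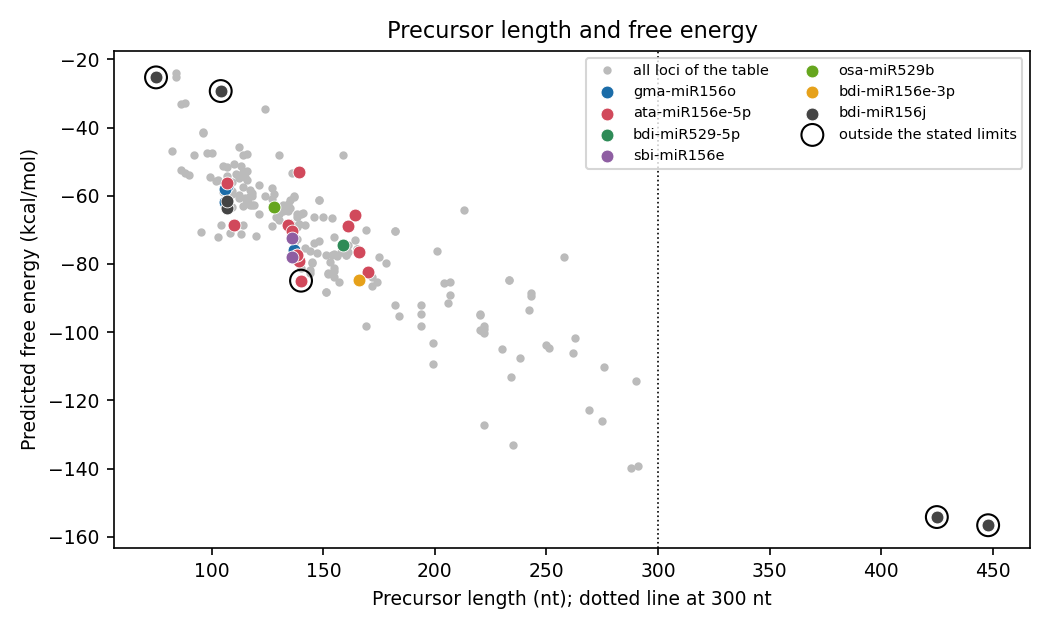
Precursor length (nt) against predicted free energy (kcal/mol) for the 28 members (coloured by sequence) and all 210 loci (grey). Rings mark the 5 members outside the limits, which include the 425-nt and 448-nt bdi-miR156j precursors right of the dotted line at 300 nt.

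The members were spread over the genome, and none lay in a cluster. They lay on chromosomes 1 (10 loci), 2 (5), 4 (2), 5 (4), 6 (2), 7 (3) and 8 (2), with 15 on K and 13 on N chromosomes and none on an unplaced scaffold. None of the 28 members had another locus of its family within 10000 nt on its strand. Only 12 of all 210 loci did, so the lack of clusters is not particular to these families. The closest miR156 neighbours, a bdi-miR156j and a gma-miR156o locus on Chr01K, were 1139225 nt apart. Next were a pair of ata-miR156e-5p loci on Chr01N, starting at 73741114 and 74943804, 1202690 nt apart. Both had a precursor of 138 nt, a free energy of -77.3 kcal/mol and the same miRNA*, so these properties did not tell them apart.

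Most members had a counterpart in the other subgenome. The share over all loci was not computed, so this is not shown to be particular to these families. Loci with the same miRNA sequence on the K and N copy of a chromosome were matched in order of position, which gave 12 pairs holding 24 of the 28 loci. The 4 without a partner were both miR529 loci (Chr01K from 36013110 to 36013268 and Chr07K from 25143622 to 25143749), the bdi-miR156e-3p locus on Chr02K and the second of the similar Chr01N loci. Partners lay on the same strand in 10 pairs, and the exceptions were the ata-miR156e-5p pairs on chromosomes 5 and 6. In 6 of the 12 pairs the nearest locus of another family had the same name in both subgenomes. How often this occurs among other loci was not computed, so it is not shown to be particular to these pairs. For example, ata-miR167d-5p was 0.43 Mb from the K locus and 0.40 Mb from the N locus of the bdi-miR156j pair with 34-nt spacing. In the same way, atr-miR171c was 0.56 and 1.16 Mb from the K and N loci of sbi-miR156e, and bra-miR162-3p was 0.58 and 0.46 Mb from those of ata-miR156e-5p on chromosome 1. The farthest of these shared names, bdi-miR169d, was 18.52 and 10.16 Mb from the K and N loci of ata-miR156e-5p on chromosome 8.

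The K and N copies kept the miRNA, as the matching required, but the miRNA* strands listed for them were often not the same. The miRNA* was identical in 2 pairs, both of bdi-miR156j. In 5 pairs it had the same length and 1 or 2 substitutions, and in 5 its listed length differed. In 2 of these last 5, ata-miR156e-5p on chromosome 1 and sbi-miR156e on chromosome 4, the shorter strand was the 5′ part of the longer, so only the 3′ end listed differed. From K to N the changes were C15T on chromosome 5, G20A on 6, T13C on 7 and T22G on 8 for ata-miR156e-5p, and A14T with T21G for gma-miR156o on chromosome 1, counted from the 5′ end of the miRNA*. The pair on chromosome 7 is printed because its copies also differed in the abundance listed.
Chr07K, 53321240 to 53321349: gctcactGctcttTctgtcaTC
Chr07N, 51592218 to 51592357: gctcactGctctCtctgtcaTC

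The Chr07N strand had the name zma-miR156e-3p and an abundance of 1, and the Chr07K strand had no name and an abundance of 0. In 3 of the 12 pairs the miRNA* was above 0 in only 1 of the copies, and in 2 pairs in both. The distance between strand starts differed by at most 2 nt in 10 pairs. Duplex energies differed by at most 1 kcal/mol in 11 pairs, and the exception was the long-precursor bdi-miR156j pair, which differed by 3.4 kcal/mol.

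The more stable precursor was on K as often as on N. The K copy had the lower free energy in 6 pairs and the N copy in 6, and K minus N averaged 1.34 ± 9.03 kcal/mol (SD, n = 12 pairs), within the spread between pairs. In the 5 pairs whose precursors differed by at most 3 nt in length, the size of the difference was between 1.8 and 5.5 kcal/mol. In the other 7, whose lengths differed by 23 to 36 nt, it was between 2.4 and 18.0 kcal/mol, and the longer precursor was the more stable in 6. The gma-miR156o pair on chromosome 5 had the largest difference, with -58.0 kcal/mol for 106 nt on Chr05K (7837065 to 7837170) and -76.0 kcal/mol for 137 nt on Chr05N (6746489 to 6746625), although the duplex energies of this pair were nearly equal.

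**Figure D4:**
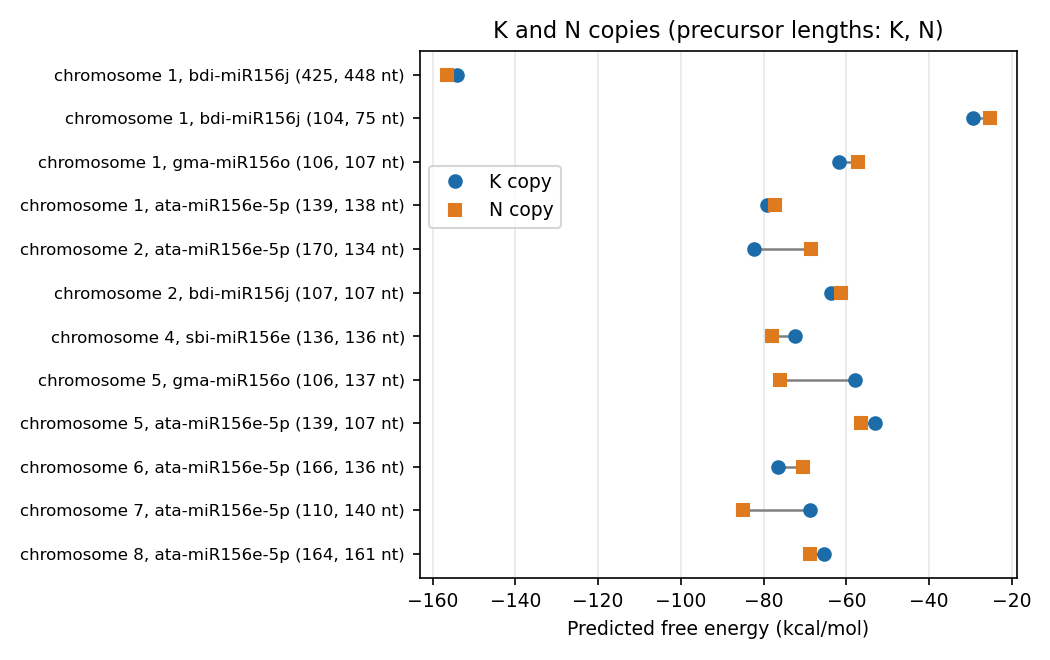
Predicted free energy (kcal/mol) of the precursors in each of the 12 K and N pairs, with circles for K, squares for N and both precursor lengths beside the name. The differences run from -13.8 to 18.0 kcal/mol (K minus N), and the 3 widest gaps join precursors whose lengths differ by 30 to 36 nt.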

How the data were processed

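Small RNA libraries from 8 switchgrass samples, 1 per condition, were processed by the authors. Adapters were trimmed, reads were placed on the switchgrass genome, version 4.1, by Bowtie (0.12.7 in the submitters' processing notes), and sequences that matched miRBase and passed a minimum stated as 10 TP10M (a depth-scaled read count) were paired with modified miREAP and folded with UNAFold, so unmatched sequences are missing. The authors deposited 494 predicted structures with positions, energies (kcal/mol), mismatches and 2 abundance columns. As no unit is named for the latter, the deposited values were handled as a score. Values down to 2 lie below that minimum. The table gives no depth per sample, and library totals were not used here.

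Structures with a miRNA abundance at or above that of the miRNA* were kept (43 for the members). Each locus was counted once with its most stable structure, or the arm listed first at the 3 loci of the table with equal arms. Duplexes were folded with ViennaRNA 2.7.2, in Python 3.11.15 with pandas 2.3.3, numpy 2.4.6 and matplotlib 3.10.9. Every sequence of the families was named. Selection and pairing were checked on simulated loci that had equal numbers of K and N loci for each sequence and unequal arms. Other cases were not simulated. The members and lists were chosen with earlier results of these data known. No test was run, because nothing is replicated. Alternatives covered the limits, the structure, cluster distance and the matching of copies. Precursor sequences were not analysed.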

Additional observations from a re-analysis of the deposited data

How the results depend on the processing

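Of 25 values recomputed under an alternative, 22 stayed within 1.5 times the count or, for energies and lengths, within 1 SD across loci or pairs. Some of the 22 could not change. No member lay on a scaffold to be removed, and with no cluster at 10000 nt there can be none at 1000 nt. Of the 25, 5 used alternatives chosen after seeing the data. Requiring a miRNA* abundance of at least 1 left 9 loci and 4 miRNA sequences, and matching copies by miRNA and miRNA* left 2 pairs, both of which follow from the stricter requirement. Within the limits 23 loci and 9 pairs were left. The mean K minus N energy was then 0.17 kcal/mol, or 0.32 kcal/mol with the most stable structure within the limits, both chosen after seeing the data. The abundances are not split by library and have no named unit, so no precision can be given for low values such as 1 and 4.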
